A study of Mus musculus with 8 samples.

Results

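The constitutive proteasome genes of pancreatic islets are described here in islet RNA of 10-week-old female mice of the NOD strain, which is prone to autoimmune diabetes. Members were the protein-coding genes whose symbol starts with Psma, Psmb, Psmc or Psmd followed by a digit, without the interferon-inducible Psmb8, Psmb9 and Psmb10. The annotation holds 37 such genes, and 35 of the 13725 genes in the deposited table were among them. Psma8 and Psmb11 were not analysed here. Psmc3ip, a partner of the meiotic recombination machinery, enters by its name only and is not a proteasome subunit, which leaves 34 genes of subunits and of dedicated assembly chaperones.

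The study compared 4 libraries from mice given vehicle with 4 libraries from mice given PAHSA, spelled PASHA in the sample labels, a class of lipids in which palmitic acid is esterified to hydroxy stearic acid. All 8 libraries share strain, sex, age and tissue, and the labels used here state no dose, route or duration. The design text speaks of single mice, whereas the extraction protocol speaks of islets pooled from 2 mice, so p-values measure the spread between libraries, whatever each holds. The islets were not sorted, and in bulk RNA fewer cells of a type and less RNA per cell cannot be told apart.

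The proteasome is the cytosolic and nuclear protease that degrades proteins tagged with ubiquitin. Its core particle, the 20S, is a barrel of outer alpha rings, which gate the entrance, and inner beta rings, which hold the proteolytic sites. The regulatory particle, the 19S, has a base with a ring of ATPases that unfolds substrates and a lid that removes ubiquitin. In beta cells, which make large amounts of proinsulin, misfolded proteins of the endoplasmic reticulum are exported to the cytosol and degraded by this route. When proteasome activity falls short, the transcription factor encoded by Nfe2l1 can raise the subunit genes together, through antioxidant response elements in their promoters.

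Short promoter stretches are shown for members whose values are given in full below, as examples of matches to known motifs, not of shown binding sites. They are RefSeq sequences of GRCm38.p6, 30 bases each, 5′ to 3′ on the strand of the gene, and the capitals mark the match. In the catalytic genes Psmb5 and Psmb6 the capitals are a strict form of the antioxidant response element core (TGACNNNGC), and in Psmd2, Psmd4 and Psma6 a binding motif of ETS factors (CCGGAAG on either strand).
Psmb5: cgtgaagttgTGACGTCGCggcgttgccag
Psmb6: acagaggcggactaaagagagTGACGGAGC
Psmd2: tccgcagggcgCTTCCGGtctggaggacaa
Psmd4: ttacagctgttCCGGAAGctgctgcgaagg
Psma6: agagccaccacCCGGAAGcccgcggaccgc

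The stretch of Psmb5 lies at chr14:54618023-54618052 on the minus strand and that of Psmb6 at chr11:70525327-70525356 on the plus strand. Those of Psmd2, Psmd4 and Psma6 lie at chr16:20651615-20651644 (plus), chr3:95042721-95042750 (minus) and chr12:55398682-55398711 (plus). The stretch of Psma6 belongs to a RefSeq start inside the gene span given below, not to the outermost annotated start of the gene. Only stretches outside annotated exons are shown. Those around the ETS matches of Psmc2, whose values are also given in full, lie wholly in annotated exons and were left out. RefSeq windows of 300 bases, 250 before to 50 after a start, were at hand for 28 of the 34 genes, 30 windows in all. The element TGACNNNGC was in 5 of 30 windows (16.7%; 14.3% of the windows of tested genes and 12.4% of all windows), on either strand. Its looser form TGANNNNGC, which includes every match of the strict form, was in 17 (56.7%; 42.6% and 41.3%), and this looser form followed by an A in 3 (10%; 10.6% and 13%). The ETS motif was in 11 windows of 10 genes (36.7%; 17.6% and 8.86%), a CCAAT box in 11 (36.7%; 37.5% and 37.4%) and a GC box (GGCGGG) in 22 (73.3%; 61.6% and 35.3%). TGACGTCA, the cAMP response element, was in 0 windows (0%; 3.19% and 1.79%) and the spaced repeat GGAANNGAA in 1 (3.33%; 7.22% and 8.24%). These 8 motifs were searched on both strands, and a match is a run of letters, not a shown binding site.

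No constitutive proteasome gene differed between vehicle and PAHSA islets past correction for multiple tests, and most differences were small. Differences are PAHSA minus vehicle in log2 CPM, and their median over the 34 genes was -0.0058, against -0.0056 for all 12231 genes tested. Of the 34 genes 17 were higher and 17 lower, within a range from -0.16 (Psma4) to 0.32 (Psmc2). None passed an adjusted p of 0.05 in limma, where 0% of all genes passed and the smallest adjusted p was 0.671. At an unadjusted p under 0.05, 2 of the 34 were higher and 0 lower, against 3.02% and 4.29% of all genes, so the members' share (5.88% against 7.31% in either direction) lay near the background. The 2 genes were the ATPase genes Psmc2 and Psmc5, and they were also the only members whose 4 PAHSA libraries all lay above the 4 vehicle libraries, against 2.06% of all genes. The reverse, all PAHSA below all vehicle libraries, was found for 0 members and 1.95% of all genes. Values per library are given below in the order of replicates 1, 3, 4 and 5 for vehicle and of replicates 1, 2, 3 and 4 for PAHSA.

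The precision behind this comparison was higher than for most genes. The 31 structural subunits had a median SE of 0.11 and a median 95% confidence interval of 0.24 to either side, and for 30 of them the whole interval lay between -0.5 and 0.5 log2 units. Over all genes tested 22.3% had such an interval, and among the 2370 genes of similar level, with a mean log2 CPM between 6 and 8, 64.9% did. Psmc2 was the exception, with an upper bound of 0.56. Within a group, the SD between libraries had a median of 0.14 over the structural subunits and 0.20 over the genes of that level. The 3 assembly chaperones, at lower levels, had wider intervals, up to 0.76 for Psmd10.

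**Figure D1:**
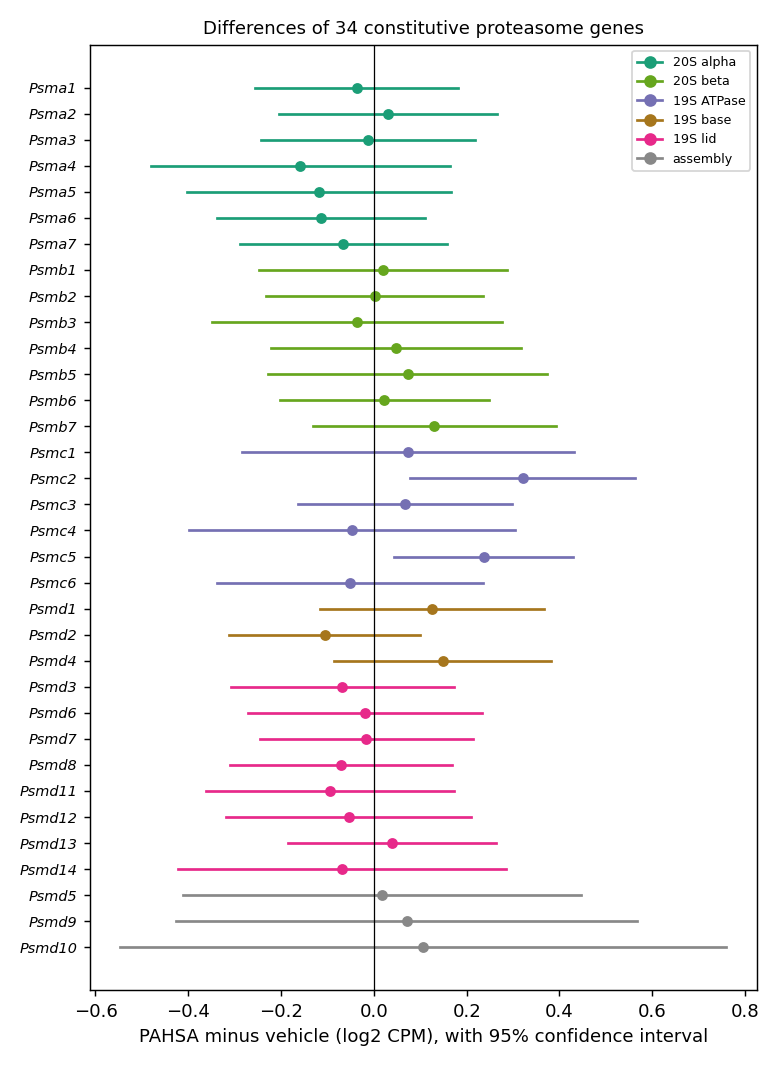
Difference between PAHSA and vehicle for the 34 proteasome genes, in log2 CPM, with points for the estimate, bars for the limma 95% confidence interval (4 libraries a group) and colours for the part of the particle. The bars of Psmc2 and Psmc5 lie to the right of 0 and all other bars cross it.

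As a share of the library, the 31 structural subunits together made up 0.472%, 0.482%, 0.481% and 0.461% of the summed CPM with vehicle. With PAHSA they made up 0.481%, 0.489%, 0.467% and 0.504%. The means were 0.474% ± 0.00955 and 0.485% ± 0.0155 (SD, n = 4), and the groups overlapped, with PAHSA replicate 4 highest and vehicle replicate 5 lowest.

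Levels differed more between genes than between treatments. Per kilobase of the longest annotated coding transcript, the 20S genes had a median of 109 CPM per kb in vehicle and 112 in PAHSA, and the 17 structural 19S genes 75.0 and 81.9. Psmb6 had the highest vehicle level, at 217 CPM per kb, and the ATPase gene Psmc6 the lowest among structural subunits, at 38.0. The assembly chaperone genes Psmd5, Psmd9 and Psmd10 lay between 8.74 and 15.1 CPM per kb. The transcript in use may be shorter than the longest annotated, so these levels order genes only roughly.

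In the alpha ring, whose subunits open and close the gate of the barrel, 6 of 7 genes were lower in PAHSA and 1 was higher, with a median difference of -0.07. The range was narrow, from -0.16 for Psma4 to 0.03 for Psma2. Psma3, at -0.01, had the highest level of the 7 in log2 CPM. The alpha ring gene with the smallest p was Psma6 (ENSMUSG00000021024, chromosome 12 from 55384222 to 55418454 in GRCm38). Psma6 was at 7.23, 7.33, 7.48 and 7.19 log2 CPM with vehicle, and at 7.10, 7.18, 7.21 and 7.29 with PAHSA. The 2 lowest values were both PAHSA, but the groups overlapped, and the difference was -0.11 (SE 0.10; limma unadjusted p = 0.284).

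In the beta ring 6 of 7 genes were higher and 1 lower, with a median difference of 0.02. The 3 catalytic subunits were all among those higher by sign, each with an interval that includes 0. Psmb6, the caspase-like subunit, was at 7.30, 7.38, 7.62 and 7.44 log2 CPM with vehicle and at 7.37, 7.55, 7.38 and 7.52 with PAHSA. All 4 PAHSA values of Psmb6 lay inside the vehicle range, with a difference of 0.02 (95% confidence interval -0.20 to 0.25, which is 0.869-fold to 1.19-fold).

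Psmb7, the trypsin-like subunit, was at 6.15, 5.98, 6.35 and 6.19 with vehicle and at 6.25, 6.36, 6.30 and 6.27 log2 CPM in PAHSA. The PAHSA values lay close together, at an SD of 0.05 against 0.15 in vehicle, and the difference was 0.13 (95% confidence interval -0.13 to 0.39). Exons of Psmb7 share up to 253 bases with those of Nek6 on the other strand, and the library kit does not mark strand. Psmb5, the chymotrypsin-like subunit and the main target of proteasome inhibitors, was at 6.56, 6.50, 6.80 and 6.40 in vehicle and at 6.34, 6.78, 6.66 and 6.76 in PAHSA. The lowest value was PAHSA replicate 1 and the highest vehicle replicate 4, and the difference was 0.07 (95% confidence interval -0.23 to 0.37). The non-catalytic Psmb1, Psmb2, Psmb3 and Psmb4 had differences from -0.04 to 0.05.

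Psmb6, Psmb7 and Psmb5 are replaced in the immunoproteasome by Psmb9, Psmb10 and Psmb8. The log2 ratio of each constitutive gene to its counterpart, taken within a library, was tested by exact permutation of the 8 libraries (two-sided, 70 assignments, smallest possible p 0.0286). Psmb5 over Psmb8 averaged -0.58 ± 0.17 with vehicle against -0.37 ± 0.14 with PAHSA (SD, n = 4 each), a difference of 0.21 (exact permutation p = 0.114, 0.342 adjusted over the 3 ratios). The difference was -0.19 for Psmb6 over Psmb9 and 0.16 for Psmb7 over Psmb10 (exact permutation p = 0.343 for each, 0.343 adjusted). The groups overlapped in all 3 ratios. The ratios are of CPM without correction for transcript length, so their sign does not tell which gene of a pair is the more abundant. Per kilobase of the longest coding transcript, Psmb5 was at 106 CPM per kb against 87.8 for Psmb8 in vehicle, and at 111 against 79.1 in PAHSA. The transcripts in use may be shorter than the longest annotated, so this orders the pair only roughly.

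The ATPase ring of the 19S held the 2 members with the smallest p. Psmc2 (Rpt1; ENSMUSG00000028932, chromosome 5 from 21785283 to 21803787) was at 7.16, 7.27, 7.45 and 6.99 log2 CPM with vehicle. With PAHSA it was at 7.52, 7.59, 7.52 and 7.53. The 4 PAHSA values lay close together and above every vehicle value, the nearest being vehicle replicate 4. The difference was 0.32 (SE 0.11, 1.25-fold with a 95% confidence interval of 1.06 to 1.48; limma unadjusted p = 0.0142, adjusted p = 0.671).

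Psmc5 (Rpt6; ENSMUSG00000020708, chromosome 11 from 106256154 to 106263120) was at 7.13, 7.24, 7.19 and 7.17 in vehicle and at 7.43, 7.40, 7.49 and 7.37 log2 CPM in PAHSA. Each group was tight, with an SD of 0.04 in vehicle and 0.05 in PAHSA (n = 4), and the groups did not overlap. The difference was 0.24 (SE 0.09, 1.18-fold with an interval of 1.03 to 1.35; limma unadjusted p = 0.0204, adjusted p = 0.671). Its SE is larger than its own spread would give because limma draws the variance toward that of genes at the same level.

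Psmc5 kept a difference between 0.21 and 0.25 with any 1 library left out, but its unadjusted p in limma was 0.0563 without vehicle replicate 1, 0.0549 without PAHSA replicate 3 and 0.0605 without the variance trend. Psmc2 kept an unadjusted p of at most 0.0488 in those 8 fits. The mean of 12 beta cell markers also separated the groups, at 9.20 to 9.38 log2 CPM in vehicle and 9.49 to 9.61 in PAHSA. With that mean in the limma fit the differences were 0.46 for Psmc2 (SE 0.23, unadjusted p = 0.0708) and 0.33 for Psmc5 (SE 0.18, unadjusted p = 0.102). The mean of 9 stellate, fibroblast and pericyte markers was 2.26 to 4.25 with vehicle and 0.41 to 2.05 with PAHSA. In a limma fit with that mean the differences were 0.40 for Psmc2 (SE 0.21, unadjusted p = 0.0802) and 0.20 for Psmc5 (SE 0.17, unadjusted p = 0.248). Without a marker mean the SEs were 0.11 and 0.09. The beta cell and stellate means both separate the groups, so those fits cannot tell treatment and markers apart. The acinar marker mean overlapped between the groups, at 8.51 to 10.4 log2 CPM in vehicle and 3.70 to 9.10 in PAHSA. With the acinar mean in the limma fit Psmc2 differed by 0.35 (SE 0.14, unadjusted p = 0.0316). Psmc5 differed by 0.26 in that fit (SE 0.11, limma unadjusted p = 0.0438). In the 6 libraries numbered 1, 3 and 4, the differences were 0.23 and 0.24 (limma unadjusted p = 0.0975 and 0.0672). What part the markers have in the values of the 2 genes was not tested further.

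The other ATPase genes had smaller differences. Psmc1 differed by 0.07, Psmc3 by 0.07, Psmc4 by -0.05 and Psmc6 by -0.05, with intervals that all include 0. Psmc3 had the smallest spread over the 8 libraries of all members, at an SD of 0.09. Its values were 6.68, 6.56, 6.65 and 6.67 in vehicle and 6.61, 6.66, 6.69 and 6.87 log2 CPM in PAHSA, where replicate 4 was highest. Psmc3 shares up to 147 exon bases with Slc39a13 on the other strand. Whether the difference of Psmc2 or Psmc5 is larger than that of the other ATPase genes was not tested.

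**Figure D2:**
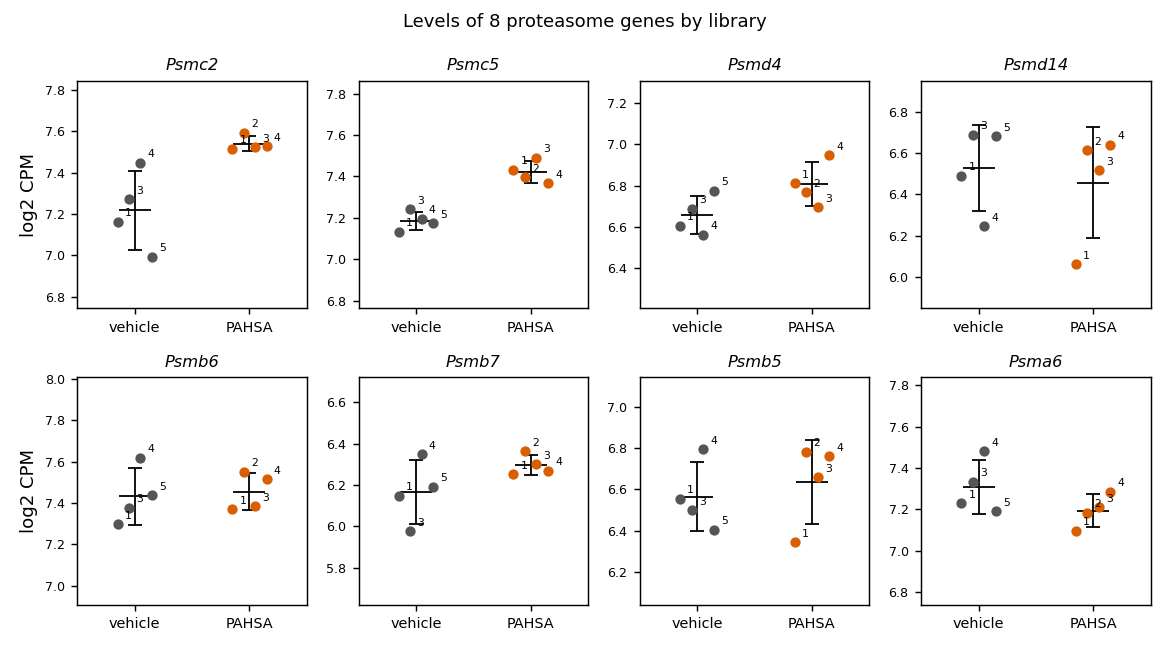
Log2 CPM of 8 proteasome genes in the 4 vehicle (grey) and 4 PAHSA (orange) libraries, numbered by replicate, with the mean and SD of each group (every axis spans 1.1 log2 units). The groups are apart in Psmc2 and Psmc5 and overlap in the other 6 genes.

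The base also holds 3 non-ATPase subunits. Psmd4 (Rpn10; ENSMUSG00000005625), a receptor for ubiquitin chains, was at 6.61, 6.69, 6.56 and 6.78 log2 CPM with vehicle. It was at 6.81, 6.77, 6.70 and 6.95 with PAHSA. Vehicle replicate 5 lay above the 2 lower PAHSA libraries, and the difference was 0.15 (SE 0.11; limma unadjusted p = 0.191). Psmd1 (Rpn2), the scaffold that carries the receptor Adrm1, was at 7.99, 7.65, 7.91 and 7.90 in vehicle and at 7.94, 8.16, 7.81 and 8.04 in PAHSA, a difference of 0.13 (SE 0.11). The groups overlapped, and exons of Psmd1 share up to 252 bases with Htr2b on the other strand and up to 154 with Gm21972 on its own. Psmd2 (Rpn1), which binds ubiquitin shuttle factors, was at 8.88, 8.73, 8.77 and 8.78 in vehicle and at 8.50, 8.83, 8.62 and 8.79 in PAHSA. PAHSA replicates 1 and 3 were the 2 lowest, and the difference was -0.11 (SE 0.09), the opposite sign to Psmd1 and Psmd4.

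In the lid 7 of 8 genes were lower and 1 higher, with a median difference of -0.06 and a range from -0.10 (Psmd11) to 0.04 (Psmd13). Psmd13 shares up to 329 exon bases with Sirt3 on the other strand. Psmd14 (Rpn11; ENSMUSG00000026914), the deubiquitinase that cuts the chain off a substrate, was at 6.49, 6.69, 6.25 and 6.68 log2 CPM with vehicle. It was at 6.06, 6.61, 6.52 and 6.64 with PAHSA. The lowest value was PAHSA replicate 1, and without that library the difference turned from -0.07 (SE 0.16) to 0.06. Psmd7, the partner of Psmd14 in the lid, differed by -0.02 with a 95% confidence interval from -0.25 to 0.21. The scaffold genes Psmd3, Psmd6, Psmd8 and Psmd12 differed by -0.07, -0.02, -0.07 and -0.05.

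The 3 assembly chaperones of the base were all higher by sign, at 0.02 for Psmd5, 0.07 for Psmd9 and 0.11 for Psmd10, which is also known as gankyrin. Their SEs were 0.19, 0.23 and 0.30, and the values show no difference beyond the spread. Psmd9 shares up to 1849 exon bases with the non-coding gene Gm26745 on the other strand. Psmc3ip, which is no subunit, had the largest spread of all members, at an SD of 0.37 over the 8 libraries. It was at 3.89, 4.07, 3.61 and 4.53 log2 CPM in vehicle and at 3.94, 4.54, 4.59 and 3.85 in PAHSA, and the groups overlapped.

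Small signs of this size were not stable. Of the 34 genes 7 kept their sign in all 20 alternative fits, namely Psmc2, Psmc5, Psmd4, Psma4, Psma5, Psma6 and Psma7, and 27 changed it in at least 1. The smallest adjusted p of any of the 34 genes in any of these fits was 0.479.

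The subunits varied between libraries in a pattern that did not follow treatment. Vehicle replicate 4 held the highest value of 10 of the 14 genes of the 20S, but of only 2 of the 17 structural genes of the 19S, whereas it held the highest value of 15.5% of all genes tested. The mean of the 20S genes was 7.39 log2 CPM there and 7.11, 7.16 and 7.13 in vehicle replicates 1, 3 and 5. With PAHSA it was 7.20, 7.25, 7.10 and 7.18. The mean of the 19S genes ran from 7.08 to 7.17 in vehicle and from 7.05 to 7.23 in PAHSA.

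Within a library the 20S mean exceeded the 19S mean by 0.03, 0.04, 0.22 and 0.05 with vehicle. With PAHSA the same difference was 0.15, 0.11, -0.04 and -0.05. PAHSA libraries thus lay on both sides of the 3 lower vehicle libraries. Without vehicle replicate 4 the median difference of the 20S genes was 0.05, with 10 higher and 4 lower, against -0.0058 with 7 and 7 in all libraries. Without vehicle replicate 1 or without PAHSA replicate 2 it was -0.04, with 3 higher and 11 lower. For the 19S genes the median was -0.02 with all libraries (7 higher, 10 lower) and 0.06 without PAHSA replicate 1 (12 higher, 5 lower).

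Transcript length moved with this pattern. The longest coding transcripts had a median of 1.16 kb for the 20S genes and 1.82 kb for the 19S genes. Vehicle replicate 4 was highest for 10 of 11 genes of the 20S under 1.5 kb and for 0 of 3 longer ones, and for 1 of 3 and 1 of 14 genes of the 19S. In the 3 longer 20S genes, Psma2, Psma3 and Psmb1, it lay below only PAHSA replicate 2 (7.70, 8.27 and 7.77 against 7.75, 8.33 and 7.81 log2 CPM). The same held for the shorter Psmb7 (6.35 against 6.36). Whether longer and shorter 20S genes differ in this library was not tested. Among the other tested genes vehicle replicate 4 was highest for 35.6% of those under 1.5 kb and 12.1% of longer ones, and at a mean log2 CPM between 6 and 8 for 54.3% and 11%. Acinar markers were also highest in vehicle replicate 4, with a mean of 10.4 log2 CPM against 8.51 to 9.84 in the other vehicle libraries and 3.70 to 9.10 in PAHSA. The CPM values summed to 1069261 in vehicle replicate 4 and to 965680 to 1013242 in the other 7 libraries. As a share of that sum the 20S genes made up 0.230% there and 0.205% to 0.226% in the others. The part of length or acinar content in the 20S values of this library was not tested.

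**Figure D3:**
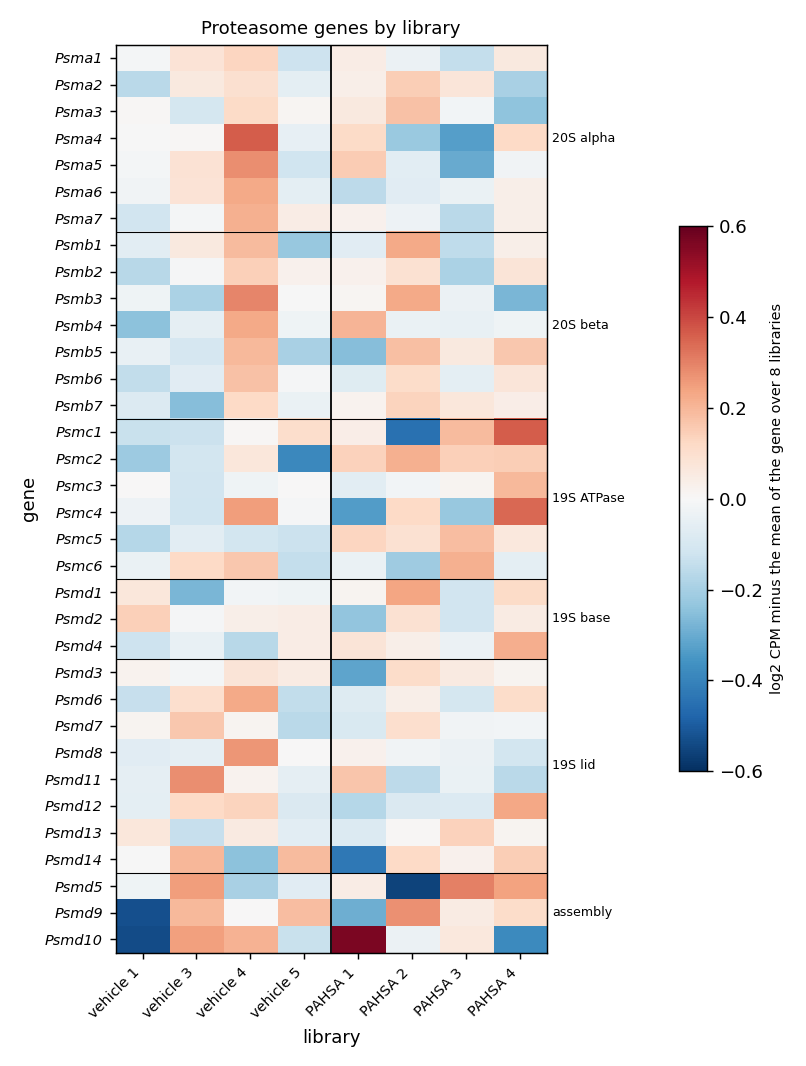
Log2 CPM of each of the 34 proteasome genes minus its mean over the 8 libraries, as colour from -0.6 (blue) to 0.6 (red), with lines between the parts of the particle and between treatments. Most 20S rows are red in vehicle replicate 4, and Psmc2 and Psmc5 change from blue to red between the groups except for Psmc2 in vehicle replicate 4.

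**Figure D4:**
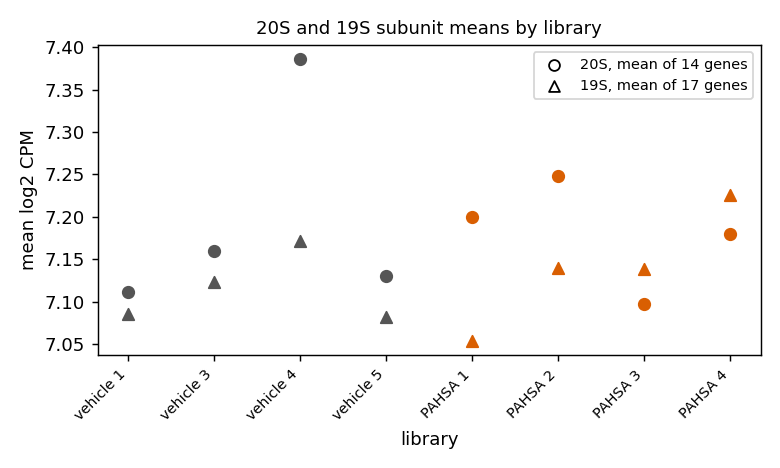
Mean log2 CPM of the 14 genes of the 20S (circles) and the 17 structural genes of the 19S (triangles) in each vehicle (grey) and PAHSA (orange) library. The circle of vehicle replicate 4, at 7.39, is the highest point, and the triangles span 7.05 to 7.23.

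The islet label was read against marker levels, and all 12 beta cell and all 6 alpha cell markers were in the table. The alpha cell markers summed to 60848 to 69634 CPM in vehicle and 66738 to 80865 CPM in PAHSA. Recovered library totals were 34468604 to 45243100 estimated counts. Of 14 acinar markers 13 were in the table and all 13 were lower in PAHSA, with a summed level of 9338 to 37464 CPM in vehicle and 341 to 14171 CPM in PAHSA. All 9 stellate markers were lower too (80.5 to 307 CPM and 37.0 to 139 CPM), whereas 9 of 12 beta cell markers were higher (137971 to 180831 CPM and 142355 to 176455 CPM). All 4 delta and PP cell markers were lower, against 1 of 6 alpha cell markers. Of the markers in the table, 4 of 6 duct, 2 of 2 endothelial, 3 of 3 macrophage and dendritic and 0 of 1 B cell markers were lower. Ptf1a of the acinar list and Lum of the stellate list were at the lowest value in 2 libraries each. T and NK cell markers had 0 of 5 in the table, B cell markers 1 of 4 and macrophage markers 3 of 7. With the acinar mean in the fit the median difference of the 34 proteasome genes was -0.0020, with the beta cell mean 0.01 and with the stellate mean 0.02.

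Genes that assemble, activate and serve the proteasome also gave no call past correction. Of 41 such genes listed by role, 40 were tested, and the regulator Nfe2l3 was not analysed here. Of the 40, 20 were higher and 20 lower, with a median of -0.0085, and 0 passed an adjusted p of 0.05 in limma. At an unadjusted p under 0.05, 1 was higher and 3 were lower, which is 10% against the 7.31% of all genes.

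Among the activators and the inhibitor (2 higher and 3 lower of 5), Psme4 was the gene with the smallest p. Psme4 encodes PA200, a large nuclear cap of the 20S that works without ubiquitin. Its values were 4.90, 5.36, 5.34 and 5.40 log2 CPM with vehicle and 5.03, 4.62, 4.62 and 4.63 with PAHSA. Replicate 1 of each group stood apart from its group toward the other, so the groups overlapped. The difference was -0.52 (SE 0.18, 95% confidence interval -0.93 to -0.12; limma unadjusted p = 0.0164, adjusted p = 0.671), and -0.93 with the stellate marker mean in the fit. The unadjusted p stayed under 0.05 with any 1 library left out, and was 0.0707 with the acinar mean and 0.201 with the beta cell mean in the fit. Psme3, the nuclear PA28 gamma cap, differed by -0.20 (SE 0.14; limma unadjusted p = 0.181). Without PAHSA replicate 2, which was high, Psme3 differed by -0.31 (limma unadjusted p = 0.0267). In the 6 libraries numbered 1, 3 and 4 Psme3 differed by -0.36 (limma unadjusted p = 0.0235, and 0.0562 with the replicate number in the fit). In the same 6 libraries Psme4 differed by -0.44 (limma unadjusted p = 0.0931, and 0.149 with the replicate number in the fit).

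Of the 16 factors that bind the proteasome or bring it substrates, 5 were higher and 11 lower, 1 and 2 of them at an unadjusted p under 0.05 (18.8% in either direction, against 7.31% of all genes). Usp14, a deubiquitinase bound to Psmd2, was at 6.79, 6.96, 6.83 and 6.74 in vehicle and at 6.26, 6.34, 6.59 and 6.77 log2 CPM in PAHSA. PAHSA replicate 4 lay inside the vehicle range and the other 3 below it. The difference was -0.34 (SE 0.13; limma unadjusted p = 0.0286), and it was -0.13 with the beta cell mean and -0.05 with the stellate mean in the fit. Without vehicle replicate 3, PAHSA replicate 1 or PAHSA replicate 2 that p was 0.0790, 0.0826 and 0.0758.

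Zfand2a, a stress-inducible factor that associates with the 19S, was at 6.04, 6.26, 6.12 and 6.01 in vehicle and at 5.82, 5.69, 5.99 and 5.32 in PAHSA. All PAHSA values lay below all vehicle values, with PAHSA replicate 3 at 5.99 close to vehicle replicate 5 at 6.01. The difference was -0.40 (SE 0.16; limma unadjusted p = 0.0288), and -0.09 with the beta cell mean and -0.22 with the acinar mean in the fit. That p was 0.0793 without vehicle replicate 3, 0.0512 without vehicle replicate 4, 0.0532 without PAHSA replicate 2 and 0.0818 without PAHSA replicate 4. Akirin2, which helps to bring proteasomes into the nucleus, was named after its values were seen. It was at 4.89, 4.97, 4.71 and 4.83 in vehicle and at 5.46, 5.25, 5.13 and 5.02 in PAHSA, without overlap, a difference of 0.37 (SE 0.16; limma unadjusted p = 0.0462). That p was 0.0338 without PAHSA replicate 4 and 0.0520 to 0.129 without any other single library. With the acinar, beta cell or stellate mean in the fit, Akirin2 differed by 0.40, 0.39 and 0.29 (limma unadjusted p = 0.0973, 0.290 and 0.366). In the 6 libraries numbered 1, 3 and 4 the difference was 0.35 (limma unadjusted p = 0.136). Groups without overlap were found for 2 of these 16 genes and for 4.01% of all genes.

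The 5 assembly chaperones of the 20S were all higher by sign, with a median of 0.16 and 0 at an unadjusted p under 0.05. Pomp, the maturation factor built into each nascent 20S, averaged 6.69 ± 0.23 log2 CPM with vehicle against 6.69 ± 0.24 with PAHSA (SD, n = 4 each), and the difference had 95% bounds of -0.34 and 0.35. Psmg1 and Psmg2, which form a dimer that guides the alpha ring, differed by 0.27 (SE 0.21) and 0.18 (SE 0.18).

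Of the 5 genes of ubiquitin supply 4 were higher and 1 lower, none at an unadjusted p under 0.05. Uba1, the main activating enzyme, differed by -0.15 (SE 0.09). Of the 6 regulators tested, 3 were higher and 3 lower, again with 0 at that level. Nfe2l1 (ENSMUSG00000038615), which encodes the factor that can raise the subunit genes together, was at 8.23, 8.22, 7.97 and 8.26 log2 CPM in vehicle and at 8.41, 8.11, 8.37 and 8.36 in PAHSA. Vehicle replicate 4 and PAHSA replicate 2 were each low in their group, and the difference was 0.14 (SE 0.10; limma unadjusted p = 0.193). Those were also the libraries with the highest means of the 20S genes, a match seen after the values were known and not tested. Ngly1, the deglycosylase that Nfe2l1 protein needs for its activation, differed by 0.15 (SE 0.15). Without vehicle replicate 4 the differences were 0.08 for Nfe2l1 and 0.05 for Ngly1. Ngly1 was also at 0.05 without PAHSA replicate 3, and Nfe2l1 at 0.21 without PAHSA replicate 2.

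The immunoproteasome genes showed no difference beyond the spread. Psmb8 differed by -0.14 (SE 0.13), Psmb9 by 0.22 (SE 0.20) and Psmb10 by -0.03 (SE 0.14), and all 3 overlapped between groups.

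**Figure D5:**
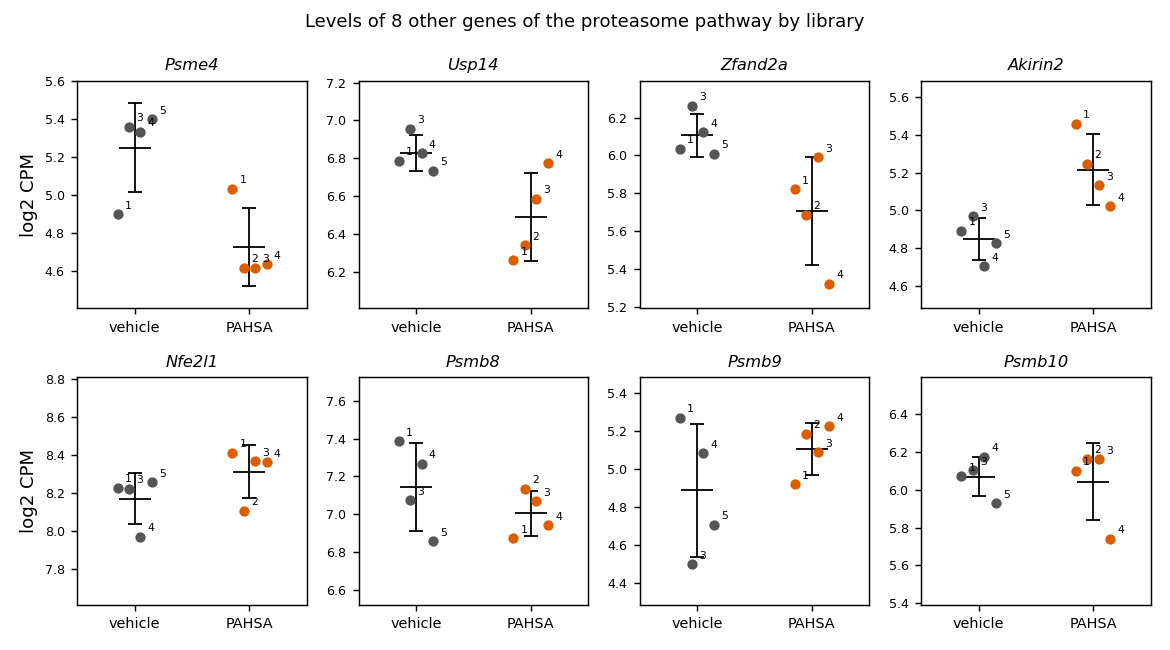
Log2 CPM of 8 other genes of the pathway in the vehicle (grey) and PAHSA (orange) libraries, numbered by replicate, with the mean and SD of each group (every axis spans 1.2 log2 units). The groups are apart in Zfand2a and Akirin2 and overlap in the other 6 genes.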

How the data were processed

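RNA-seq libraries of 4 vehicle and 4 PAHSA islet samples were built by Nextera XT tagmentation, which keeps no strand, per the labels' protocols. The deposited values are log2 CPM made by the authors, and kallisto and limma are named in the submitters' processing notes without a version. Build and annotation were not given in the sources used here. The lowest value of each library was read as 0 counts with 0.5 added, which gave library totals as a description of depth. All 8 columns matched a library by name.

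Symbols, positions and transcript lengths came from GENCODE M21 (GRCm38), and 49 identifiers had no symbol. Genes with a mean log2 CPM above 0 were tested by a linear model on group alone, moderated with a variance trend (limma 3.58.1, R 4.3.3), two-sided, with Benjamini-Hochberg adjustment over all 12231 genes and a threshold of 0.05. Differences understate changes of low genes because of the added 0.5. Reads that fit several transcripts are divided by estimation in kallisto, so values of Psmb5, Psmb6 and Psmb7, for which the annotation lists processed pseudogenes, may be less certain. Besides the shared exons named above, Psmc3ip, Psma4, Psma5 and Psmd3 share up to 385, 114, 60 and 17 exon bases with genes on the other strand. Psmb5 shares up to 109 with Mir686 on its own strand. The procedure was tested on simulated data.

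Members and lists were chosen with earlier results of these data known. Values in every library are given for the 6 members with the smallest p, the catalytic subunits, Psmd4, Psmd14 and the members with the largest and smallest SD. Of each other list the 2 genes with the smallest p are given, and always Nfe2l1, Pomp and the immunoproteasome genes. A gene that this rule names is not reported here. Alternatives changed the filter, scale, normalization, moderation, covariates and libraries.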

Additional observations from a re-analysis of the deposited data

Results flagged for a closer look

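Over the members and the other genes described, 98 groups of 4 libraries were searched for a highest or lowest library whose gap to the next made up most of the range of its group (Dixon's 95% limit), and 10 did, where chance gives about 1 in 20. Among members, Psmc2 was at 7.59 log2 CPM in PAHSA replicate 2 against 7.52 to 7.53 in the other PAHSA libraries. Psma4 was at 7.01 in vehicle replicate 4 against 6.60 to 6.65, and Psmb4 at 7.23 in PAHSA replicate 1 against 6.98 in the lowest PAHSA library. Among other genes of the pathway, Psme4 stood apart in both groups, at 4.90 in vehicle replicate 1 (others 5.34 to 5.40) and at 5.03 in PAHSA replicate 1 (others 4.62 to 4.63). Nfe2l1 did so too, at 7.97 in vehicle replicate 4 (others 8.22 to 8.26) and at 8.11 in PAHSA replicate 2 (others 8.36 to 8.41). Psme3 was at 6.84 in PAHSA replicate 2 against 6.34 to 6.42, Uba1 at 8.24 in PAHSA replicate 1 against 8.47 to 8.51 and Psmb10 at 5.74 in PAHSA replicate 4 against 6.10 to 6.16.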

How the results depend on the processing

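In all 20 alternatives 0 genes passed an adjusted p of 0.05 in limma, and the median difference of the 34 proteasome genes stayed between -0.05 and 0.05 (leaving out 1 library, -0.05 to 0.05). Of all genes 894 had an unadjusted p under 0.05, 349 after adding the beta cell mean, 528 after adding the stellate mean, and 669 to 968 with 1 library left out. Of the 34 members 2 did, 2 with the acinar mean, 0 with the beta cell mean and 0 with the stellate mean. The count was 1 in eBayes without trend and 1 to 2 with 1 library left out. The libraries numbered 1, 3 and 4 exist in both groups, but their deviations did not correlate (-0.02 for each number), so the numbers were not taken as pairs. In those 6 libraries 0 members did so with the replicate block and 0 with no replicate block. With fewer samples the fit has less power, and so has a fit with a marker mean that separates the groups, as the beta cell and stellate means do.

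Small differences of named genes changed sign as follows, and the cause was not tested. With the acinar mean Psmb10 was at 0.15 and Psmc3 at -0.0056. With the beta cell mean Psmb10 was at 0.14, Psmb4 at -0.035, Psmb7 at -0.018, Psmb9 at -0.16, Psmc3 at -0.037, Psmd1 at -0.14, Psmd14 at 0.27 and Psme3 at 0.074. With the stellate mean Pomp was at -0.097, Psmb4 at -0.22, Psmb6 at -0.033, Psmb8 at 0.12, Psmc3ip at -0.091, Psmd14 at 0.20, Psmd2 at 0.059 and Psmg2 at -0.19. In the 6 libraries, with or without the replicate block, Pomp was at -0.13, Psmb5 at -0.029 and Psmb6 at -0.0077. With columns shifted to the same median Pomp was at -0.0087, and without both libraries numbered 4, a choice made after seeing the data, Psmb10 was at 0.11. With 1 library left out, Pomp ranged from -0.077 to 0.12, Psmb10 from -0.074 to 0.073, Psmb4 from -0.026 to 0.13, Psmb6 from -0.022 to 0.085 and Psmd14 from -0.16 to 0.063. Changes under about 0.24 log2 units in a single subunit were within the usual confidence interval.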
